A study of Homo sapiens with 8 samples.

Results

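Long-chain acyl-CoA synthetases and further genes on the lipid side of ferroptosis were examined in the human renal carcinoma line CAKI1, an established cell line, after stimulation with hLcn-2, the iron-loaded (holo) form of the iron carrier lipocalin-2. The 8 genes ACSL1, ACSL3, ACSL4, ACSL5, LPCAT3, AIFM2, SAT1 and PEBP1 were chosen by name, and each had exactly 1 of the 16782 rows in the deposited table. All cells had been serum starved for 24 h. The 4 control samples were left unstimulated, and the 4 hLcn-2 samples received hLcn-2 at 5 µg/mL, likewise over 24 h. Samples are numbered 1 to 4 in each group, a single cell line, dose and time were used, and nothing in the labels says that samples of a group came from separate cultures, so p-values measure the spread between these samples only. RNA was read at the 3′ end of each transcript with unique molecular identifiers (UMI), by which PCR copies of a molecule are counted once. Values are normalized counts, which are close to counts scaled to a common library size (CPM).

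Ferroptosis is an iron-dependent form of cell death in which polyunsaturated fatty acids in membrane phospholipids are oxidized. Acyl-CoA synthetases attach coenzyme A to free fatty acids, and lysophospholipid acyltransferases such as LPCAT3 then place the activated chains into phospholipids. ACSL4 prefers arachidonic and adrenic acid, which makes membranes easy to oxidize, whereas ACSL3 is known for activating monounsaturated chains that are hard to oxidize. AIFM2 (also called FSP1) regenerates the radical-trapping form of coenzyme Q, SAT1 degrades polyamines, and PEBP1 binds RAF kinases and also lipoxygenases.

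The libraries held between 1501563 (control 4) and 13953090 reads (control 1), so that 1 read was worth between 0.0704 and 0.658 normalized counts. Control 4 and hLcn-2 sample 3, with 2088266 reads, were the shallowest. Of 10 markers listed for the renal carcinoma line, 8 were measured. Their summed values were 2864 to 3863 in controls and 3209 to 4100 in hLcn-2 samples. VIM, MET and CDH2 made up the largest parts of this sum, while CDH1, EPCAM and KRT8 stayed at no more than 63.1 in any sample. CDH1 was at 13.5, 9.30, 43.9 and 52.7 in controls 1 to 4. In hLcn-2 samples 1 to 4 it was at 9.26, 16.8, 56.8 and 63.1, a split by sample number that the sum hides. Of the defining markers of other cell types, 0 of 5 were measured for endothelial cells and 2 of 5 for fibroblasts (COL1A1 and PDGFRB), with the summed fibroblast markers at no more than 6.58 in any sample. Since bulk RNA was measured, more RNA per cell and more cells with the RNA cannot be told apart.

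**Figure D1:**
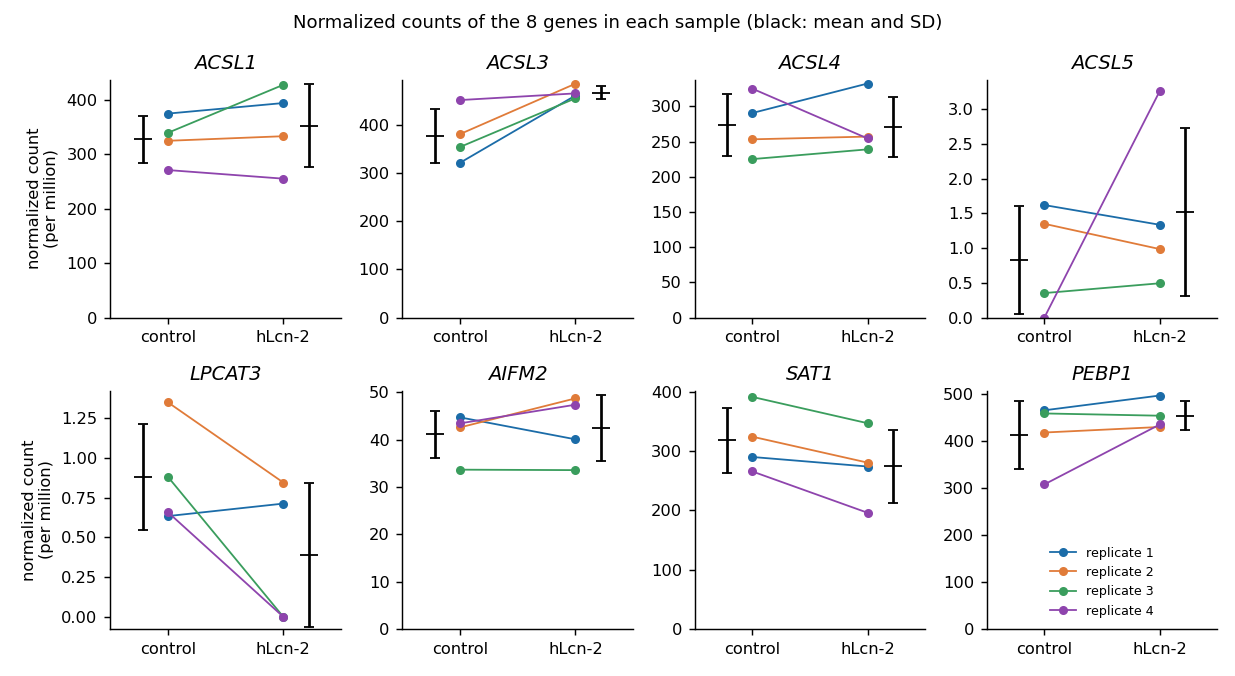
Normalized counts (vertical axes, each starting at or just below 0) of the 8 genes in controls and hLcn-2 samples, with lines joining samples of the same number and black bars for mean and SD of 4 samples. The 4 hLcn-2 values of ACSL3 lie above all 4 controls, while the groups overlap for the other 7 genes, and ACSL5 and LPCAT3 reach at most 3.26 and 1.35.

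ACSL3 was the gene among the 8 whose groups differed most clearly relative to their spread. It had normalized counts of 321, 381, 354 and 451 in controls 1 to 4 and of 460, 485, 455 and 465 in hLcn-2 samples 1 to 4. All hLcn-2 values lay above all controls, and they lay much closer together, with means of 377 ± 55.3 in controls and 466 ± 13.2 in hLcn-2 samples (SD, n = 4). Groups without overlap were found for 1 of the 7 members tested and for 1.88% of the 15593 genes tested, in the direction of ACSL3 for 0.891%. The geometric mean was 24.7% higher with hLcn-2, a log2 difference of 0.32 (standard error 0.13, 95% interval 0.04 to 0.60) on the scale log2(normalized count + 1). This difference did not pass the test (limma, adjusted p = 0.9999 by the Benjamini-Hochberg method over all genes tested). An exact two-sided permutation test of the 4 against 4 samples gave p = 0.0286, the smallest p-value possible when the same-numbered pairs are ignored. The gap between the groups was small. Control 4, counted from 685 reads, had a counting interval of 418 to 486 (exact 95% Poisson interval). This interval covers all 4 hLcn-2 values but none of the other controls.

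Within the same-numbered pairs, ACSL3 was higher with hLcn-2 in 4 of 4, as were 9.93% of all genes tested. The log2 differences were 0.52, 0.35, 0.36 and 0.043 in pairs 1 to 4. Pair 4, which holds the shallowest library, thus differed by far less than the other 3. With the replicate number as a block, the standard error of the ACSL3 difference was 0.083 and its 95% interval 0.14 to 0.50, but the adjusted p-value remained above the threshold at 0.139 in limma and at 0.0521 in the quasi-likelihood test of edgeR on recovered reads (both Benjamini-Hochberg). Each pair was also left out in turn. In limma with the block, the Benjamini-Hochberg adjusted p-value of ACSL3 was 0.395, 0.435 and 0.352 without pairs 1, 2 and 3, and 0.0405 without pair 4. In edgeR with the block it was 0.351, 0.282, 0.202 and 0.0107 (Benjamini-Hochberg). Since pair 4 had the smallest difference, leaving it out had to give a larger one, of 0.41 in limma and 0.43 in edgeR, and its call is no support. Fits without pair 4 called 0.372% of all genes in limma and 1.42% in edgeR, with ACSL3 the 1 member called in each.

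ACSL4 showed no such difference. Its normalized counts were 291, 253, 225 and 325 in controls and 333, 257, 239 and 254 in hLcn-2 samples. The groups overlapped, and the largest value stood in hLcn-2 sample 1. Means were 274 ± 43.7 and 271 ± 41.9 (SD, n = 4), with a log2 difference of -0.01 (standard error 0.15, limma, Benjamini-Hochberg adjusted p = 0.9999). The 95% interval of -0.35 to 0.32 left room for changes between 0.787-fold and 1.25-fold, and with the replicate block it narrowed to -0.21 to 0.18. ACSL4 was slightly higher with hLcn-2 in pairs 1, 2 and 3 (log2 differences of 0.19, 0.02 and 0.09) and lower by 0.35 in pair 4.

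ACSL1, a synthetase of broad substrate range, had normalized counts of 374, 324, 339 and 271 in controls and of 394, 333, 427 and 255 in hLcn-2 samples. In both groups sample 4 was the lowest, and the groups overlapped. The log2 difference of 0.09 (standard error 0.17, 95% interval -0.28 to 0.46) did not pass the test (limma, Benjamini-Hochberg adjusted p = 0.9999). With the replicate block the interval narrowed to -0.09 to 0.26 (limma). hLcn-2 samples were higher in 3 of 4 pairs, most in pair 3 with 0.33.

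Because ACSL3 and ACSL4 activate different chains, their ratio within a sample was also examined, a measure chosen after the single values had been seen. Since a read count also depends on how well a transcript end is captured, only the change of this ratio is described, not its level. In controls 1 to 4 the ratio was 1.10, 1.503, 1.57 and 1.39, and in hLcn-2 samples 1 to 4 it was 1.38, 1.89, 1.90 and 1.83. Sample 1 was the lowest in both groups, and the hLcn-2 value of sample 1 lay within the range of the controls. Inside the pairs, the ratio was higher with hLcn-2 in 4 of 4, by 0.28 to 0.40 on the log2 scale (mean 0.33, SD between pairs 0.050). This range was narrower than that of ACSL3 alone (0.043 to 0.52), and pair 4 was the lowest of the 4 for both genes. The exact permutation test that ignores the pairs gave p = 0.114. How often ratios of other genes are higher in 4 of 4 pairs was not counted. Pair counts of ratios are therefore given without a background share.

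The ratio of ACSL3 to ACSL1 was also higher in 4 of 4 pairs, but by amounts that varied from 0.029 to 0.45 (mean 0.23, exact permutation p = 0.429). For the ratio of ACSL4 to ACSL1, the mean difference was -0.10 (exact permutation p = 0.714), with hLcn-2 higher in 1 of 4 pairs. None of the 3 ratios separated the groups beyond the spread between samples when pairs were ignored.

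**Figure D2:**
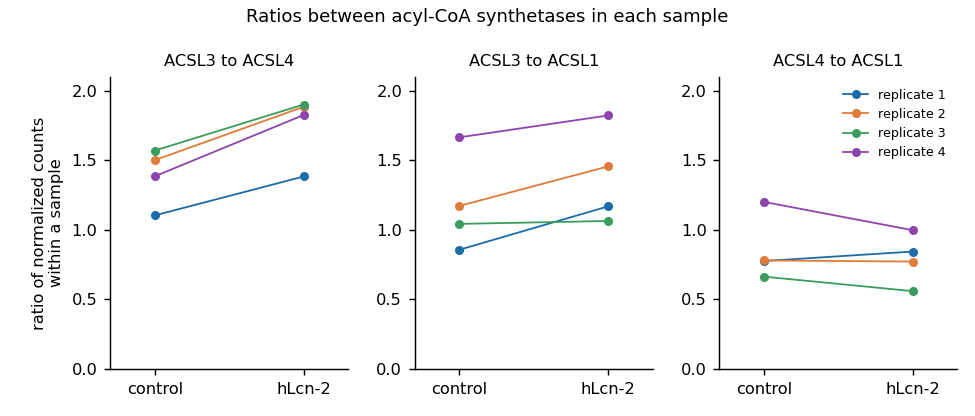
Ratio of normalized counts of a pair of acyl-CoA synthetases within each sample (vertical axes from 0), in controls and hLcn-2 samples, with lines joining samples of the same number. All 4 lines of ACSL3 to ACSL4 climb by similar amounts (log2 differences of 0.28 to 0.40), those of ACSL3 to ACSL1 climb by unequal amounts, and 3 of 4 lines of ACSL4 to ACSL1 go down.

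The genes ACSL5 and LPCAT3 were measured near the limit of detection. ACSL5, known as a synthetase of mitochondria and endoplasmic reticulum, was counted from 23, 18, 2 and 0 reads in controls 1 to 4 and from 15, 7, 1 and 15 reads in hLcn-2 samples 1 to 4. Normalized, these are 1.62, 1.35, 0.353 and 0 against 1.34, 0.986, 0.494 and 3.26. The highest value, in hLcn-2 sample 4, faced a count of 0 in the shallowest library, where 3 reads are worth 1.98. Its log2 difference of 0.46 (standard error 0.39, 95% interval -0.391 to 1.304) did not pass the test either (limma, Benjamini-Hochberg adjusted p = 0.9999), and it was higher in 2 pairs and lower in 2. Reads summed over a group were 43 in controls, or 1.27 CPM (exact 95% Poisson interval 0.918 to 1.71), and 38 in hLcn-2 samples, or 1.52 CPM (1.07 to 2.08). A difference was not detectable at this depth.

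LPCAT3 reached 1 normalized count in control 2 alone, and so did not pass the filter that asks for this level in 2 samples. Control samples 1 to 4 held 9, 18, 5 and 1 reads, and hLcn-2 samples held 8, 6, 0 and 0. The normalized counts were 0.634, 1.35, 0.881 and 0.658 in controls and 0.713, 0.845, 0 and 0 with hLcn-2. Samples without a read were hLcn-2 samples 3 and 4, where 3 reads would be worth 1.48 and 0.652. Summed over the groups, 33 reads in controls (0.974 CPM, exact 95% Poisson interval 0.670 to 1.37) stood against 14 in hLcn-2 samples (0.560 CPM, 0.306 to 0.939), and these intervals, which cover counting error only, overlap. An exact permutation test of the samples, ignoring the pairs, gave p = 0.229 for a log2 difference of -0.48.

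LPCAT3 also carries a limit of annotation. Its last exon (chr12:6976185-6976891, minus strand, GRCh38) overlaps over all of its 707 bases with EMG1, a gene for ribosome assembly on the opposite strand, and the sources used here do not state whether reads were counted by strand. EMG1 had 42.3 to 61.9 normalized counts in controls and 31.1 to 72.4 in hLcn-2 samples. Whether this overlap lowered or raised the count of LPCAT3 was not tested. Where other members share exon bases with another gene, these lie outside their last exon. The exception is 12 bases of the last exon of AIFM2, which MACROH2A2 overlaps from the opposite strand.

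AIFM2, the coenzyme Q reductase, did not differ between the groups beyond the spread of the samples. Normalized counts were 44.7, 42.6, 33.7 and 43.5 in controls and 40.1, 48.7, 33.6 and 47.4 in hLcn-2 samples. Sample 3 was the lowest in both groups, with nearly equal values. The log2 difference was 0.04 (standard error 0.17, 95% interval -0.32 to 0.40, or 0.799-fold to 1.32-fold; limma, Benjamini-Hochberg adjusted p = 0.9999). With the replicate block the interval narrowed to -0.19 to 0.26 (limma). AIFM2 was higher with hLcn-2 in 2 pairs and lower in 2, and between 66 and 635 reads were counted for it.

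The promoters of the members were searched for short elements bound by factors that answer to oxidants (NRF2), amino acid shortage (ATF4) and sterols (SREBP). Windows from 250 bases before to 50 after each RefSeq start (GRCh38.p14) were read on both strands. The letters of the antioxidant response element, TGACNNNGC, occur in 13.3% of 35116 such promoters, those of the amino acid response element, TGATGNAAN, in 3.61%, and those of the sterol regulatory element, TCACNCCAC, in 1.13%. ACSL3, ACSL4, LPCAT3, SAT1 and PEBP1 had no match in these windows. The antioxidant element was matched in AIFM2, in 1 of several starts of ACSL1, where a match to the sterol element overlaps it, and at 2 places in ACSL5. ACSL1 and ACSL5 have more than 1 window each, whereas the shares above are per window. The matches of the better expressed genes are shown on the gene's strand with the matched letters in capitals, for AIFM2 at chr10:70132829-70132857 and for ACSL1 at chr4:184805771-184805799.
AIFM2: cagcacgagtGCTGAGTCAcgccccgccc
ACSL1: agcagtggggTGACTTTGCtgctggctgc
Counted from the start, the match begins at position -22 in AIFM2, where it is read on the other strand, and at -236 in ACSL1. The log2 differences of these genes were 0.04 and 0.09, and whether any factor acts at the matches was not tested.

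SAT1, the spermidine and spermine acetyltransferase, was the member that was lower with hLcn-2 in every pair. Its normalized counts were 290, 324, 391 and 265 in controls and 274, 280, 347 and 196 in hLcn-2 samples. Sample 3 was the highest and sample 4 the lowest in both groups, so that the groups overlapped widely although each pair pointed the same way. Means were 317 ± 54.6 and 274 ± 61.7 (SD, n = 4). The log2 difference of -0.23 (standard error 0.18, 95% interval -0.62 to 0.17) did not pass the test (limma, Benjamini-Hochberg adjusted p = 0.9999). The exact permutation test, which ignores the pairs, gave p = 0.371. In fits without the block, single libraries moved the difference, to -0.074 without hLcn-2 sample 4, -0.12 without control 3 and -0.35 without hLcn-2 sample 3. Each of these fits left 1 sample without its same-numbered partner. Leaving out a whole pair in limma with the block gave -0.27 to -0.15 (Benjamini-Hochberg adjusted p 0.342 to 0.568). Within the pairs the SAT1 difference was -0.08, -0.21, -0.17 and -0.44, and 10.9% of all genes tested were lower in 4 of 4 pairs. With the replicate block the 95% interval was -0.40 to -0.06, the unadjusted p-value 0.0133 and the adjusted one 0.265 (limma, Benjamini-Hochberg).

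PEBP1, the RAF kinase inhibitor protein, had normalized counts of 466, 419, 460 and 308 in controls and of 498, 431, 455 and 436 in hLcn-2 samples. Control 4 stood well below the other 7 samples. Means were 413 ± 73.1 and 455 ± 30.4 (SD, n = 4), and the log2 difference was 0.15 (standard error 0.15, 95% interval -0.17 to 0.48, limma, Benjamini-Hochberg adjusted p = 0.9999). This value rested on control 4, the shallowest library, without which it was 0.02. The pairs gave 0.094, 0.040, -0.015 and 0.50. With the replicate block the 95% interval for PEBP1 was -0.04 to 0.35 (limma).

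**Figure D3:**
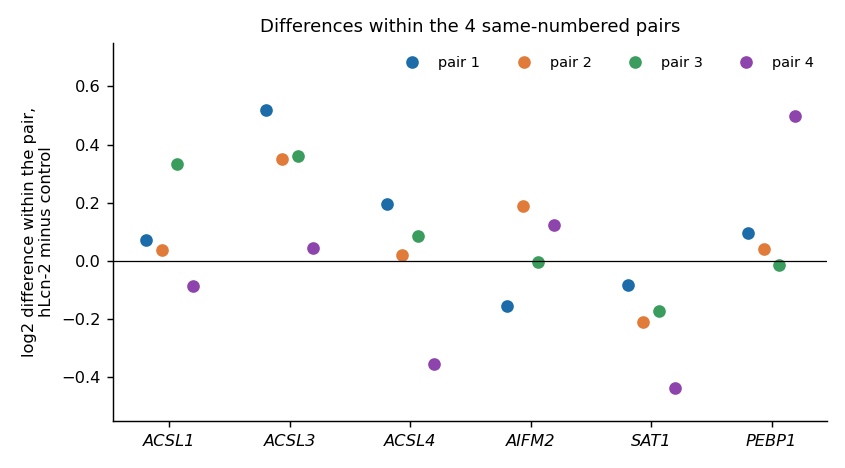
Log2 difference of hLcn-2 minus control (vertical axis) within each same-numbered pair, for the 6 genes counted in every sample, with 1 colour per pair. All pairs lie above 0 for ACSL3 and below 0 for SAT1, and pair 4 is at the edge of the 4 for every gene shown except AIFM2.

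Across the better expressed members, sample number accounted for more of the variation than stimulation. For all genes tested, the median share of the sum of squares was 6.15% for the group and 66.6% for the replicate number. The replicate number has more levels than the group, so noise alone would tend to give it the larger share. The shares are not corrected for this. Replicate number took 86.2% for ACSL1, 70.9% for ACSL4, 86.6% for AIFM2, 78.1% for SAT1 and 57.4% for PEBP1. ACSL3 was the exception among the members, with 60.4% for the group and 21.9% for the replicate number. Pair 4 gave the lowest of the 4 differences for ACSL1, ACSL3, ACSL4 and SAT1 and the highest for PEBP1. The part that the depth of control 4 had in this was not tested.

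In sum over the members, 0 of the 7 tested were called in limma without the block, as were 0.0% of all genes. At an unadjusted p-value under 0.05 this fit held 1 member, ACSL3, and 2.28% of all genes, and edgeR without the block held 1 member and 2.08%. With the replicate block, limma called 0.282% and edgeR 1.49% of all genes, and 0 members in each. At an unadjusted p-value under 0.05, limma with the block held 2 of 7 members, beside 12.2% of all genes. These were ACSL3 on the higher side, with 6.65% of all genes, and SAT1 on the lower side, with 5.53%. The median log2 difference of the 7 was 0.09, with 5 higher and 2 lower, against 0.00 for all genes. This median was not stable, ranging from 0.040 to 0.17 over the alternatives.

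**Figure D4:**
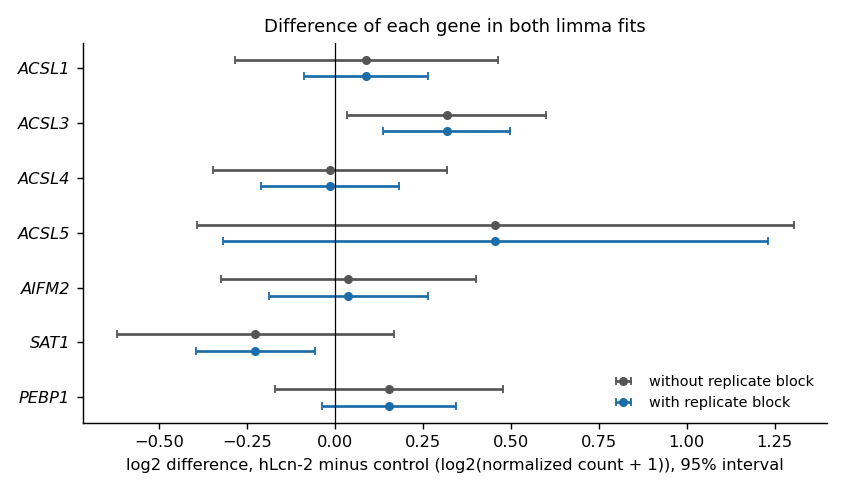
Log2 difference of hLcn-2 minus control (horizontal axis) for the 7 members tested, with 95% intervals from limma without (grey) and with (blue) the replicate block. The intervals of ACSL3 lie above 0 in both fits (0.04 to 0.60 and 0.14 to 0.50), that of SAT1 lies below 0 with the block only (-0.40 to -0.06), and that of ACSL5 is the widest.

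The neighbouring steps of the pathway were examined with lists that held 98 further genes tested. Of these, 0 were called in limma, edgeR or DESeq2 without the block, and limma and edgeR held 4 and 3 at an unadjusted p-value under 0.05, beside 2.28% and 2.08% of all genes. With the block, 13 of the 98 were at an unadjusted p-value under 0.05 in limma, beside 12.2% of all genes, a share near the background. Limma with the block called 2 of the 98 (0.282% of all genes) and edgeR 3 (1.49%). The 2 called by limma were SLC7A11 and CHAC1, which stand on a list chosen with earlier results of these data known. Of 21 other acyl-CoA synthetases and fatty acid transport proteins, 13 were tested, with 6 higher and 7 lower and a median log2 difference of -0.02. The 2 with the smallest p-values in the blocked fit were ACSS2, which activates acetate, and AACS, which activates acetoacetate. ACSS2 averaged 30.8 ± 2.45 in controls and 38.0 ± 8.15 with hLcn-2 (SD, n = 4), a log2 difference of 0.27, and 4 of 4 pairs pointed upwards (limma with the block, Benjamini-Hochberg adjusted p = 0.384). AACS had a log2 difference of 0.19.

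Acyl-CoA thioesterases and binding proteins, which release or carry the activated chains, were also balanced, with 5 of 13 higher, 8 lower and a median of -0.01. The binding protein gene ACBD7 (-0.50) and the thioesterase gene ACOT9 (-0.17) had the smallest p-values of this list, both short of the threshold. ACBD7 had no more than 4.20 normalized counts in any sample. For lysophospholipid acyltransferases, phospholipases and ether lipid enzymes, 10 of 20 were higher and 10 lower (median 0.00). Of these, TMEM164, which takes part in making ether phospholipids, was 0.25 higher and the phospholipase gene PLA2G6 0.59 lower on the log2 scale, the latter from 1.297 ± 1.36 to 0.403 ± 0.390 normalized counts (SD, n = 4), close to the worth of 3 reads. Among genes of lipid peroxidation, 4 of 11 were tested (median 0.19, 3 higher and 1 lower). These included the NADPH oxidase NOX1 at 0.46, with only 2.63 to 9.98 normalized counts, and the cytochrome P450 reductase POR at 0.18. No matching row was found for the lipoxygenases of the list, so they could not be analysed.

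Enzymes around coenzyme Q, tetrahydrobiopterin and other radical-trapping molecules gave 10 higher and 11 lower of 21 (median 0.00). Those with the smallest p-values were DHCR7, which converts the radical-trapping sterol 7-dehydrocholesterol to cholesterol, at 0.26, and PTS of tetrahydrobiopterin synthesis at 0.29, neither of them called. Of 15 genes of polyamine metabolism, the pathway of SAT1, 8 were higher and 7 lower (median 0.10). OAZ1, an antizyme that lowers polyamine synthesis and uptake, averaged 712 ± 95.03 in controls and 925 ± 189 in hLcn-2 samples (SD, n = 4), a log2 difference of 0.36. It was higher in 4 of 4 pairs, and its Benjamini-Hochberg adjusted p-values were 0.9999 in limma without the block, 0.0569 with it, and 0.0132 in edgeR with the block. The related antizyme gene OAZ3 stood at -0.84, at no more than 2.63 normalized counts in any sample. RAF kinases and further partners of PEBP1 gave 2 higher and 5 lower of 7 (median -0.15), with BRAF at -0.20 and the MEK gene MAP2K1 at 0.16.

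Of 6 genes often used as read-outs of ferroptotic stress, 4 were higher and 2 lower, with a median of 0.28. They ranged from -0.03 to 0.72, and no inducer of ferroptosis is named for these samples. Ferroptotic stress itself was not tested here, and the paper links SLC7A11 to protection from ferroptosis. SLC7A11 and CHAC1 are on this list and were already among the genes that the paper reports as differing in these data. The median of the list is thus no independent result. SLC7A11, the cystine importer, and CHAC1, which degrades glutathione, had log2 differences of 0.72 and 0.71. Without the block these differences had unadjusted p-values of 0.00108 and 0.0231 in limma and were not called. With it the adjusted p-values were 0.0150 and 0.0206 in limma and 0.000495 and 0.00197 in edgeR (Benjamini-Hochberg), while limma with the block but no intensity trend, or without pair 2 or pair 3, called neither. ACSL3 stood at 0.32 in the same samples, and whether this differs from those values was not tested.

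**Figure D5:**
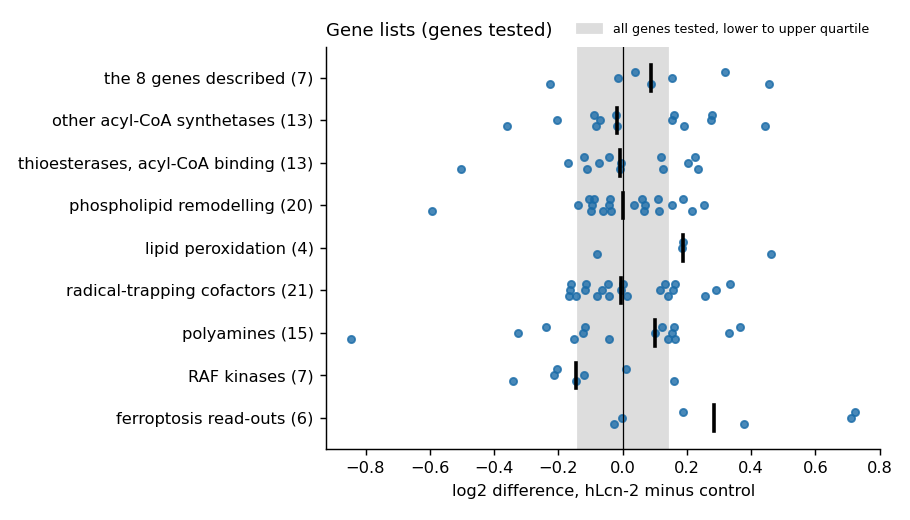
Log2 difference of hLcn-2 minus control (horizontal axis) of each gene tested, by list, with a black bar for the median of the list and the number of genes tested in brackets. The grey band marks the lower to upper quartile of all genes tested (-0.14 to 0.14), and the list medians lie inside or close to it except for the genes of lipid peroxidation and the read-outs, at 0.19 and 0.28. The read-outs include SLC7A11 and CHAC1, which were already known to differ in these data.

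The genes whose values over the 8 samples were most like those of ACSL4, among 9006 genes with a mean of at least 10, were VTA1 (Pearson's r = 0.985), YWHAQ (0.969) and HPCAL1 (0.965). Most like ACSL3 were MED17 (r = 0.921), NARS2 (0.918) and ZCCHC8 (0.905), with rank correlations of 0.690, 0.952 and 0.929. These are descriptions over 8 samples that share their libraries and pairs, picked as the highest of many genes.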

How the data were processed

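RNA of 4 control and 4 hLcn-2-treated CAKI1 samples was sequenced from 500 pg RNA with QuantSeq 3′ libraries and UMI (NextSeq 500, 75 cycles). The authors aligned UMI-tagged reads to GRCh38 with STAR, collapsed them, counted them with HTSeq and deposited normalized counts, a signal per gene scaled by library size. A figure legend of the study gives n = 3 for the RNA-seq comparison without naming the samples, so all 4 deposited samples of each group were used. All 134256 values were whole multiples of 1 read (tolerance 0.001). Limma 3.58.1 (R 4.3.3) with an intensity trend, two-sided, was fitted on log2(value + 1) to the 15593 genes with at least 1 CPM in 2 samples. This unblocked limma design had been fixed for normalized values and was kept. Alternatives were a block for the replicate number, count tests on recovered reads (edgeR 4.0.16 quasi-likelihood, DESeq2 1.42.0 Wald), and other pseudocounts, filters, scalings and samples. Same-numbered samples deviated together (correlations across genes of 0.312 to 0.610), which pairs them by the data and their label numbers. Members and lists were chosen with earlier results of these data known. All 8 members are named. From each list the 2 genes with the smallest p-value in the blocked limma fit are named, and any gene called. Of 120 listed genes, 22 had no matching row and could not be analysed. Gene positions are from GENCODE 44, and scripts were tested on simulated data. One marker list is not reported here.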

Additional observations from a re-analysis of the deposited data

Results flagged for a closer look

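Of 54 groups of 4 samples examined (8 members, 3 ratios and 16 further named genes in each group), 2 held a sample whose distance from the others exceeded Dixon's 95% critical value, where 2.7 would be flagged by chance. BRAF was at 50.9 normalized counts in hLcn-2 sample 3, above the 29.3 to 32.8 of the other 3 hLcn-2 samples. Control 3 was also the highest control, at 59.9. The ratio of ACSL3 to ACSL4 in hLcn-2 sample 1 was 1.38, below the 1.83 to 1.90 of the other 3, and control 1 was likewise the lowest control, at 1.10.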

How the results depend on the processing

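Among fits to all 8 samples, ACSL1 ranged over 0.06 to 0.11, ACSL3 0.29 to 0.33, SAT1 -0.26 to -0.21, PEBP1 0.12 to 0.16, AIFM2 0.01 to 0.07 and ACSL5 0.131 to 1.196 on the log2 scale. ACSL4 ranged from -0.04 to 0.01, its sign turning in edgeR with the replicate block (0.0055). LPCAT3 stood at -1.67 with a pseudocount of 0.1 and at -0.13 with 5. No member was called in any fit to all 8 samples. Leaving out 1 sample gave -0.013 to 0.23 for ACSL1, -0.12 to 0.075 for ACSL4, -0.052 to 0.14 for AIFM2, -0.35 to -0.074 for SAT1 and 0.02 to 0.22 for PEBP1. Leaving out a pair gave, in limma and edgeR with the replicate block, -0.082 to 0.10 and -0.076 to 0.12 for ACSL4, -0.088 to 0.69 and -0.29 to 0.51 for ACSL5, and -0.012 to 0.10 and -0.027 to 0.12 for AIFM2. For ACSL3 these were 0.25 to 0.41 (Benjamini-Hochberg adjusted p 0.0405 to 0.435, limma) and 0.26 to 0.43 (0.0107 to 0.351, edgeR). Without pair 4, ACSL3 (0.41 in limma, 0.43 in edgeR) was called, so that members called numbered 0 to 1. The sign also turned for ACOT9 (-0.36 to 0.00168, without hLcn-2 sample 3) and MAP2K1 (-0.053 to 0.34, without control 4 or hLcn-2 sample 1) when 1 sample was left out. The cause of these turns was not tested. The median of the 7 members moved by more than its SD between the 4 pairs in 16 of 34 alternatives.

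Genes called were 0 in every unblocked fit. The replicate block gave 44 in limma, 233 in edgeR and 173 in DESeq2, and in limma 8 and 45 with pseudocounts of 0.1 and 5, 85 with a mean of at least 10, 0 without the trend (1567 unadjusted), 36 with equal column sums and 43 with DESeq2 size factors. Without pair 1, 2, 3 or 4, limma called 14, 3, 0 and 58 genes and edgeR 66, 56, 125 and 221. Blocked combinations with a scaling, edgeR without a pair, and the ratios were added after seeing the data. A difference under the worth of 3 reads (0.211 to 1.98) cannot be shown for ACSL5 and LPCAT3.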
